A study of Mus musculus with 38 samples.

Results

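The genes described here encode the enzymes that turn squalene into cholesterol, in brown adipose tissue of mice on a low fat diet, on a high fat diet, and on a high fat diet with a herbal formulation. They were taken by gene name from the array files: squalene epoxidase (Sqle), lanosterol synthase (Lss), lanosterol demethylase (Cyp51), a sterol reductase (Tm7sf2), the methyl sterol oxidase Sc4mol (now named Msmo1), the sterol dehydrogenase Nsdhl, the sterol ketoreductase Hsd17b7, lathosterol oxidase (Sc5d) and 7-dehydrocholesterol reductase (Dhcr7). All 9 names were found among the 29411 gene names of the array, and all 9 were tested, among 21625 genes whose signal stood well above background on 6 or more of the 38 arrays. On the arrays the 9 genes have 16 probes, and 5 genes have more than 1; values are those of the probe with the highest mean signal.

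C57BL/6J mice entered the diets after weaning, at 3 to 4 weeks of age. The LFC group ate a low fat diet with 10% of calories from fat. The HFC group ate a diet rich in fat and sucrose, with 60% of calories from fat, and the HF5, HF20 and HF75 groups ate that same diet with 5, 20 or 75 micrograms of the botanical formulation Kal-1. LFC and HFC had 10 arrays each, at days 6, 10 and 14 and weeks 0, 3, 6, 9, 12, 15 and 18, and each dose had 6, at weeks 3 to 18. Each group has 1 array at a time point in the labels, and time points therefore stood in for replicates. Some array titles, among them most of the bright arrays described below, also carry a tag of the letter R and a number. The labels do not say what it means. Arrays set against each other at Weeks 3, 6, 9 and 15 did not all carry the same tag, and its part in the differences was not tested. Whether an array holds RNA of 1 animal or of several, and the sex of the mice, are not given in the sources used here. All p-values measure the spread between these arrays, part of which may be technical. In dissected tissue, fewer adipocytes and less RNA per adipocyte cannot be told apart.

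Cholesterol synthesis has an early branch, which builds squalene from acetyl-CoA through mevalonate, and a late branch, which oxidises squalene, closes its rings to lanosterol and trims lanosterol to cholesterol. Many genes of both branches are known targets of the transcription factor SREBP-2, which is released from the endoplasmic reticulum when its membrane is low in sterol. The protein SCAP escorts it and the INSIG proteins hold it back. Brown fat burns fatty acids to make heat.

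Of 10 brown adipocyte markers 7 were well above background on all 38 arrays, among them Ucp1, Cidea and Prdm16. So were 2 of 8 skeletal muscle and 5 of 7 macrophage markers, so detection alone does not set tissues apart. The mean level of the brown adipocyte markers was lowest in HF75, at -2.63 on its lowest array. In the other groups it did not fall below 0.53 (LFC). Arrays differed widely in brightness, with 75th percentiles between 35.1 and 1209 intensity units (median 183). A boundary of 600 units, chosen after the arrays were seen, separates 11 bright arrays (4 LFC, 2 HFC, 4 HF20 and 1 HF75) from 27 dim ones. This bears on every comparison below. Of the 9 genes, Sc4mol, Hsd17b7, Sc5d and Dhcr7 were well above background on 38 of 38 arrays, Tm7sf2 on 37, Sqle on 34, Nsdhl on 33, Lss on 25 and Cyp51 on 21. No spot of these probes was saturated (0) or flagged as an outlier (0).

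The stretches before the start sites of the 9 genes were searched for letters of known elements on both strands. RefSeq windows of GRCm38.p6, from 250 bases before to 50 bases after a start, were at hand for 8 genes (10 windows), with 3 windows for Dhcr7 and none for Sqle. The letters CCAAT, which the factor NF-Y binds, were found for 8 of 8 genes and in 8 of 10 windows, against 37.4% of all 32851 windows. The letters GGGCGG, which Sp1 binds, were found for 8 of 8 genes and in 9 of 10 windows, against 35.7% of all windows. CANNTG, the E-box, was found for 6 of 8 genes and in 8 of 10 windows, against 72.3% of all. The letters TCACNCCAC, taken for the core of a sterol regulatory element, were found for 0 of 8 genes and in 1.24% of all windows. A CCAAT and a CANNTG overlapped once, for Nsdhl, and a GGGCGG and a CANNTG once, for Sc5d. These are letters and not measured sites.

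The last 150 bases before the start are given for 4 genes: Lss and Cyp51, which each passed a test below, Nsdhl, which held the most CCAAT letters (4 in its window), and Hsd17b7, which had the smallest diet difference. Capitals mark CCAAT, or ATTGG where it is read from the other strand. The stretches lie at chr10:76531455-76531604 (plus strand), chr5:4104698-4104847 (minus), chrX:72918371-72918520 (plus) and chr1:169969206-169969355 (minus) of GRCm38.p6, in the order shown.
Lss: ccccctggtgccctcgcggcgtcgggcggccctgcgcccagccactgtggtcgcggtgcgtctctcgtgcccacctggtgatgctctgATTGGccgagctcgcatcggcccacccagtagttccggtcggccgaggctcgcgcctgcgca
Cyp51: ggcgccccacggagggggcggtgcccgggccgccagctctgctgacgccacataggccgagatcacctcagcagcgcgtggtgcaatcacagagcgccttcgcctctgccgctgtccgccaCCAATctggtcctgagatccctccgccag
Nsdhl: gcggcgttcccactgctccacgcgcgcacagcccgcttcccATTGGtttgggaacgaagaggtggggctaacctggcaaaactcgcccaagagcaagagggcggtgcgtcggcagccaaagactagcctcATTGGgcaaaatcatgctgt
Hsd17b7: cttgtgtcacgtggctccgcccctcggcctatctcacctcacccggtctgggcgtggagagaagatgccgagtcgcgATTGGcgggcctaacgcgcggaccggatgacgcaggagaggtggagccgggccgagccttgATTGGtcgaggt

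The first comparison asked how the high fat diet changed these enzymes over the whole course. All 9 genes were lower on average in HFC than in LFC, by 0.31 to 1.72 on the log2 scale, but none passed the adjusted threshold of 0.05. The difference was 2.90-fold for Sqle and 1.24-fold for Hsd17b7. The sizes for Lss and Cyp51 are less certain, since their spots were not well above background on 3 and 4 of the 10 HFC arrays. The median change of the 9 genes was -1.16, against 0.05 over all genes tested. Levels below are log2 signal minus the 75th percentile of the same array, and differences are between the arrays of the same time point. Levels of different genes come from different probes and were not set against each other.

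Sqle carries out the first oxygen-dependent step and is a control point of the late branch. Its level in LFC ran from -2.15 to 1.78 with a median of -0.19, and in HFC from -2.50 to -0.81 with a median of -1.90. HFC was below LFC at 10 of 10 time points, although the ranges of the groups overlapped. The change was -1.53 (SE 0.39, 95% interval -2.38 to -0.68) with an adjusted p of 0.652 in limma. The gap was widest at Week 3, at -3.90, and narrowest at Day 14, at -0.14.

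Lss closes the sterol ring. Its level ran from -3.98 to 0.57 in LFC (median -2.06) and from -5.09 to -1.003 in HFC (median -3.72). HFC was lower at 9 of 10 time points and higher at Day 10, by 1.44. The change was -1.72 (SE 0.56), and the spot was well above background on 10 LFC and 7 HFC arrays. With a floor under the signals (the dimmest signal of the array that still passed the background call), the change was -1.21, and with normexp background correction -0.43.

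Cyp51 removes a methyl group from lanosterol. Its level ran from -4.19 to -0.82 in LFC (median -2.39) and from -5.74 to -2.44 in HFC (median -4.09), and HFC was lower at 9 of 10 time points. The change was -1.45 (SE 0.37). Its spot was well above background on 8 LFC and 6 HFC arrays, and the change was -0.72 with the same floor and -0.20 with normexp. The other probes of Cyp51 changed by -0.67 and -0.21, so the 3 probes shared the direction and not the size.

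Tm7sf2, which reduces the product of Cyp51, ran from -1.68 to 1.71 in LFC (median -0.72) and from -1.70 to 0.25 in HFC (median -1.35). It was lower in HFC at 9 of 10 time points, with a change of -1.05 (SE 0.34).

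Sc4mol, Nsdhl and Hsd17b7 act in turn to strip the methyl groups at the fourth carbon. Sc4mol ran from 0.76 to 3.23 in LFC (median 1.52) and from -0.11 to 2.31 in HFC (median 0.77), with a change of -0.84 (SE 0.24). Nsdhl ran from -2.71 to 2.14 in LFC (median -1.59) and from -2.85 to -1.32 in HFC (median -1.94), with a change of -1.26 (SE 0.45). Both were lower in HFC at 9 of 10 time points, but the 4 bright LFC arrays held Nsdhl at 0.41 to 2.14 and the 6 dim ones at -2.71 to -1.59. Hsd17b7 changed least, by -0.31 (SE 0.23, adjusted p 0.667), with HFC from -1.88 to 1.26 and LFC from -1.79 to 0.58, and was lower at 8 of 10 time points.

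Sc5d and Dhcr7 act near the end of the path. Sc5d ran from 0.42 to 3.59 in LFC (median 1.35) and from 0.13 to 2.03 in HFC (median 0.73), was lower in HFC at 7 of 10 time points and changed by -0.67 (SE 0.32). Dhcr7 ran from -1.01 to 3.28 in LFC (median 0.52) and from -1.14 to 1.59 in HFC (median -0.55), was lower at 8 of 10 and changed by -1.16 (SE 0.46). The groups overlapped for both genes.

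Among all 21625 genes tested, limma called 0 in this comparison (0%), and 0 of the 9 genes, with adjusted p of 0.652 to 0.667. At an unadjusted p under 0.05, where 1474 genes lay, 2.24% of all genes were lower in HFC, and 7 of the 9 genes were, with Hsd17b7 and Sc5d outside. At least 9 of 10 time points were lower for 6 of the 9 genes, against 1.66% of the 20712 genes measured on every one of these arrays. The direction was the same for all 16 probes of the 9 genes, with the second Lss probe at -0.96, those of Nsdhl at -0.88 and -1.50, that of Hsd17b7 at -0.56 and that of Dhcr7 at -0.59.

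**Figure D1:**
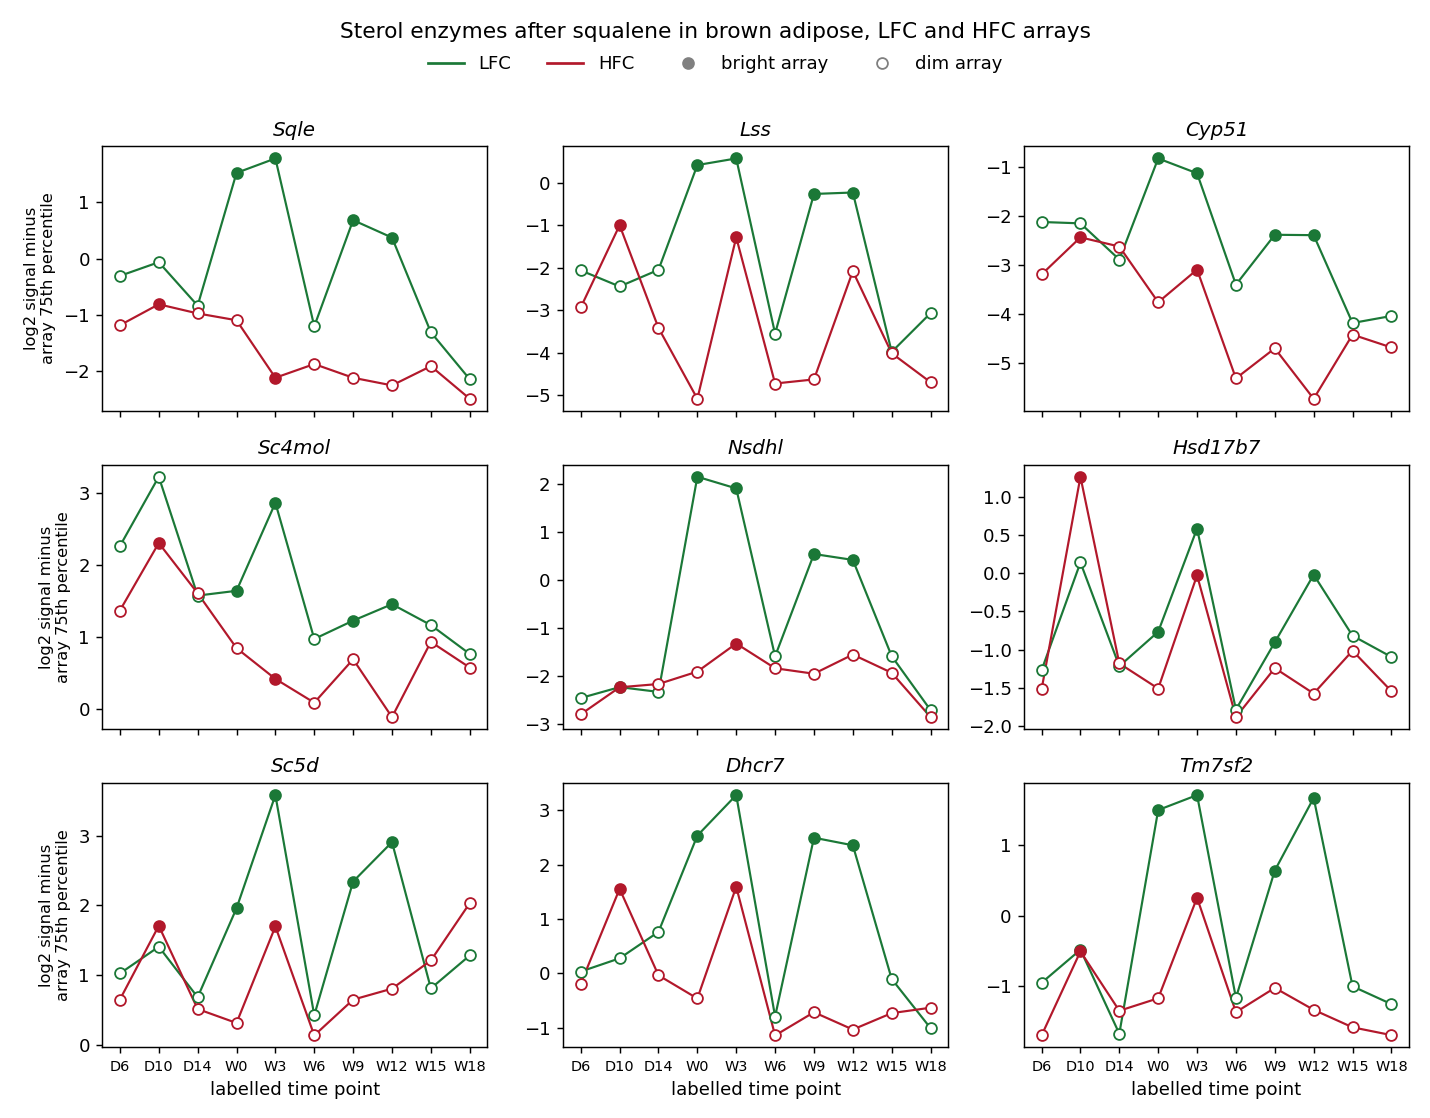
Level of each of the 9 genes (log2 signal minus the array's 75th percentile, vertical axes, scaled for each gene) at the 10 labelled time points (horizontal axis) for LFC (green) and HFC (red); filled points are bright arrays and open points dim ones, 1 array per point. The LFC line stands above the HFC line at 10 of 10 time points for Sqle, and the widest gaps lie at Weeks 0, 3, 9 and 12.

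The gap was not even over the course. All 9 genes were lower in HFC at Day 6 and at Weeks 0, 3, 6, 9 and 12. At Week 15 there were 8 lower, at Week 18 7, at Day 10 5 and at Day 14 4. The median over the 9 genes was lowest at Week 0, at -2.67, followed by Week 9 (-2.32), Week 12 (-2.10) and Week 3 (-1.89). At the other 6 time points it lay between -0.75 (Day 6) and 0.03 (Day 14). The 4 time points with the widest gaps are those at which the LFC array was bright.

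**Figure D2:**
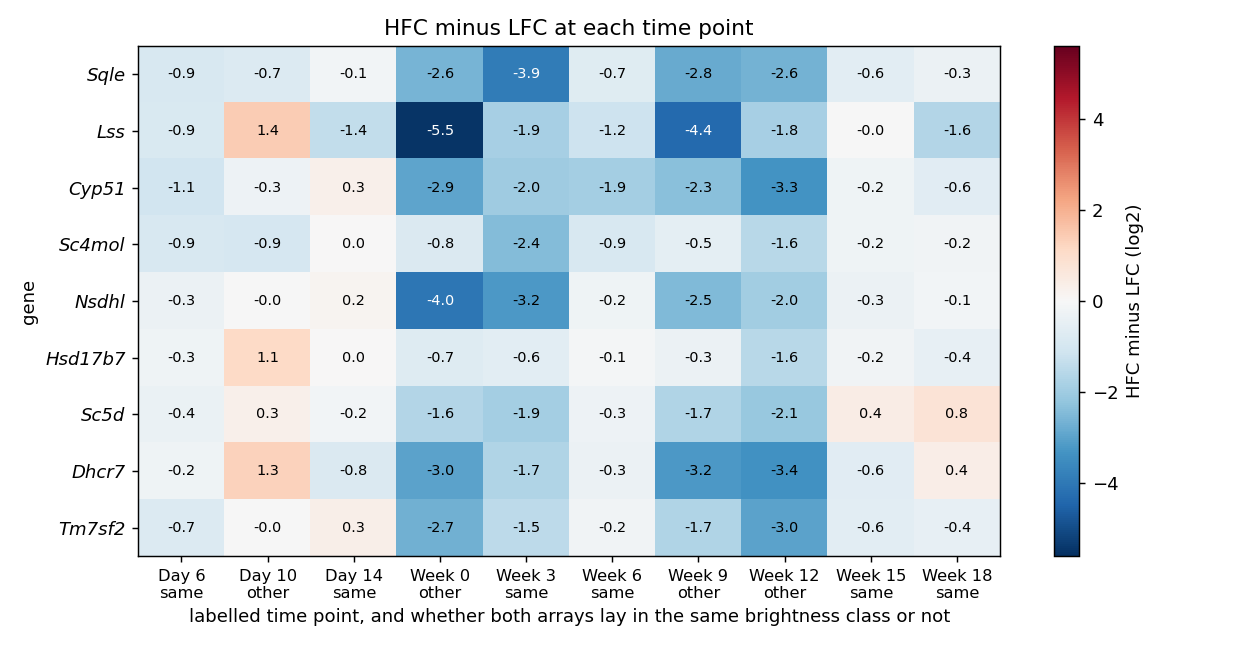
HFC minus LFC (log2, colour and printed value) for each of the 9 genes (rows) at each labelled time point (columns), with "same" under the 6 time points at which both arrays lay in the same brightness class and "other" under the 4 at which they did not. Blue cells (lower in HFC) fill the columns of Day 6 and Weeks 0, 3, 6, 9 and 12, and the lowest value is Lss at Week 0, at -5.50.

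Since brightness and the gap moved together, the comparison was repeated at the 6 time points at which both arrays lay in 1 class (Day 6, Day 14 and Weeks 3, 6, 15 and 18). All 9 genes were again lower in HFC there on average, with a median of -0.69 against -2.08 at the 4 others. At these 6 time points Lss differed by -1.16, Sqle by -1.09, Cyp51 by -0.93, Sc4mol by -0.77, Nsdhl by -0.69, Dhcr7 by -0.55, Tm7sf2 by -0.52, Hsd17b7 by -0.26 and Sc5d by -0.26. Sqle was lower at 6 of the 6, Lss at 6 and Sc5d at 4. With the log2 75th percentile of the array as a covariate, the changes of the 9 genes ran from -1.23 (Sqle) to -0.09 (Hsd17b7). Sc4mol moved little under either, at -0.77 and -0.86. Week 3, at which both arrays were bright, held Sqle at 1.78 in LFC and -2.12 in HFC, and Nsdhl at 1.90 and -1.32. The means over the 6 time points lean on this week. The median difference of the 9 genes was -1.89 there, and between -0.75 and 0.03 at the rest of the 6. Sqle differed by -3.90 there and by -0.88 to -0.14 at the rest, Nsdhl by -3.22 and by -0.35 to 0.16. Means without Week 3 were not computed. Arrays of 1 class could still differ, with 75th percentiles of 49.83 (HFC) and 147.7 (LFC) at Week 18.

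**Figure D3:**
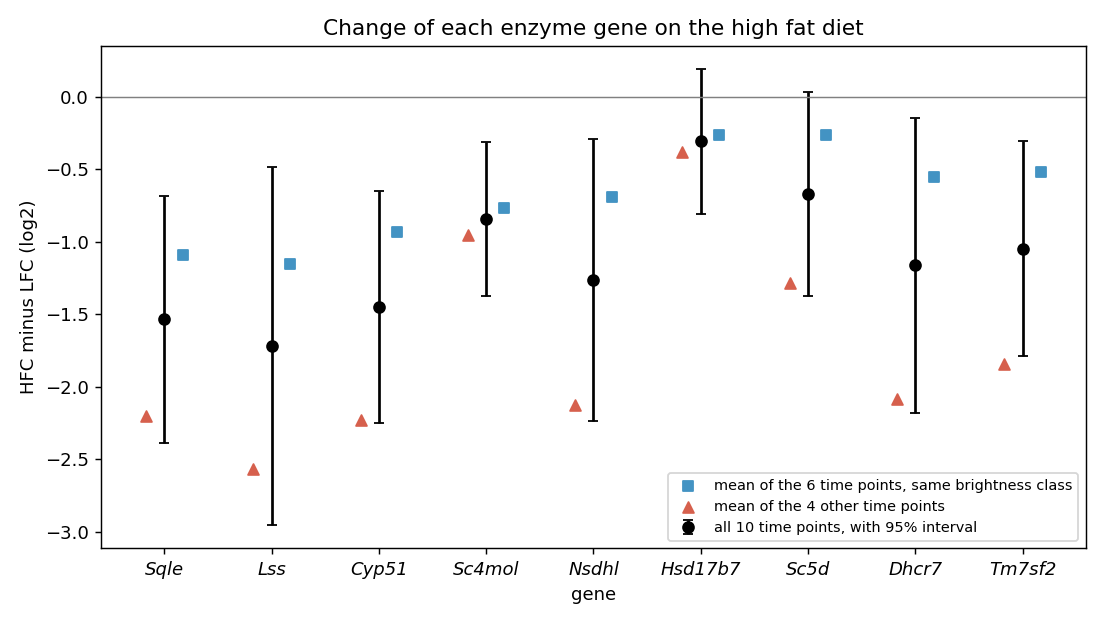
HFC minus LFC (log2, vertical axis) for each of the 9 genes: black points are the limma change over 10 time points with its 95% interval, blue squares the mean of the 6 time points of the same brightness class, red triangles the mean of the 4 others. Every square lies below 0, and the triangle of Lss is the lowest mark, at -2.57.

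Restricted to Weeks 3 to 18, in a fit with the dose arrays, the changes were -1.83 for Sqle (SE 0.43), -1.82 for Lss (SE 0.69), -1.74 for Cyp51 (SE 0.45), -1.23 for Tm7sf2 (SE 0.54), -0.98 for Sc4mol (SE 0.28), -1.40 for Nsdhl (SE 0.54), -0.54 for Hsd17b7 (SE 0.29), -0.80 for Sc5d (SE 0.41) and -1.48 for Dhcr7 (SE 0.57). None passed, with adjusted p of 0.352 to 0.378, where 2 of all genes passed (0.00925%). At an unadjusted p under 0.05, 7 of the 9 genes were lower, against 4.07% of all genes. These arrays are in part those of the first comparison, so the values are not a second measurement. For Cyp51 the change was -0.0028 with normexp, and its other probes gave -0.51 and 0.26.

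The product of diet and day asked whether the gap widened or narrowed. No gene passed (0%, with 3283 at an unadjusted p under 0.05), and the slopes of the 9 genes, per 70 days, were 0.17 for Sqle, 0.04 for Lss, -0.08 for Cyp51, -0.19 for Tm7sf2, 0.23 for Sc4mol, 0.29 for Nsdhl, -0.37 for Hsd17b7, 0.29 for Sc5d and -0.19 for Dhcr7. Their adjusted p ran from 0.67 to 0.991.

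Levels over the days, with the diet in the model, fell for Cyp51 by 1.15 per 70 days (SE 0.27, adjusted p 0.0425). Its HFC arrays of Days 6, 10 and 14 lay at -3.20, -2.44 and -2.62 and those of Weeks 12, 15 and 18 at -5.74, -4.43 and -4.69. Its LFC arrays lay at -2.12, -2.15 and -2.89 and at -2.39, -4.19 and -4.04. The spot was well above background on all of these early arrays. It was not on the HFC arrays of Weeks 12 and 18 and the LFC arrays of Weeks 15 and 18, so the size of the fall is uncertain. Sc4mol (-0.68, SE 0.21, adjusted p 0.0843) and Sqle (-0.81, SE 0.27, adjusted p 0.102) had negative slopes that did not pass. The slopes of the others were -0.74 for Lss, -0.64 for Dhcr7, -0.28 for Hsd17b7, -0.23 for Tm7sf2, -0.17 for Nsdhl and 0.19 for Sc5d. Among all genes 304 passed (1.41%), against 2 with the scan day as a block, and 1 of the 9 passed in the main fit. At an unadjusted p under 0.05, 3 of the 9 genes were lower with time, against 6.52% of all genes. The call of Cyp51 did not hold with normexp, where the slope was 0.34, with the brightness covariate (-0.82, adjusted p 0.167), with the floor (-0.67, adjusted p 0.124) or with the scan day as a block (adjusted p 0.136), and narrowly missed with no filter (0.0584), the mean over probes (0.0746) or Day 14 and Week 0 joined (0.0554). Nor did it hold without Day 10 (0.0634), Week 0 (0.0862), Week 3 (0.0588), Week 9 (0.0549), Week 15 (0.0777) or Week 18 (-1.28, adjusted p 0.269). The other probes of Cyp51 had slopes of -1.08 and -0.23.

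The dose comparisons asked whether Kal-1 changed these genes on the high fat diet. In HF20 all 9 genes were on average higher than in HFC, while in HF5 and HF75 they lay on either side of it, and no gene of the 9 passed for any dose. At Weeks 3 to 18 the highest group mean was that of LFC for 6 genes and that of HF20 for Lss, Hsd17b7 and Dhcr7. The lowest was that of HF75 for 4 genes, of HFC for 3 and of HF5 for 2. Among those 4, Lss and Nsdhl had spots well above background on 1 and 4 of the 6 HF75 arrays, so their ranks are uncertain. The 3 comparisons share the 6 HFC arrays.

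**Figure D4:**
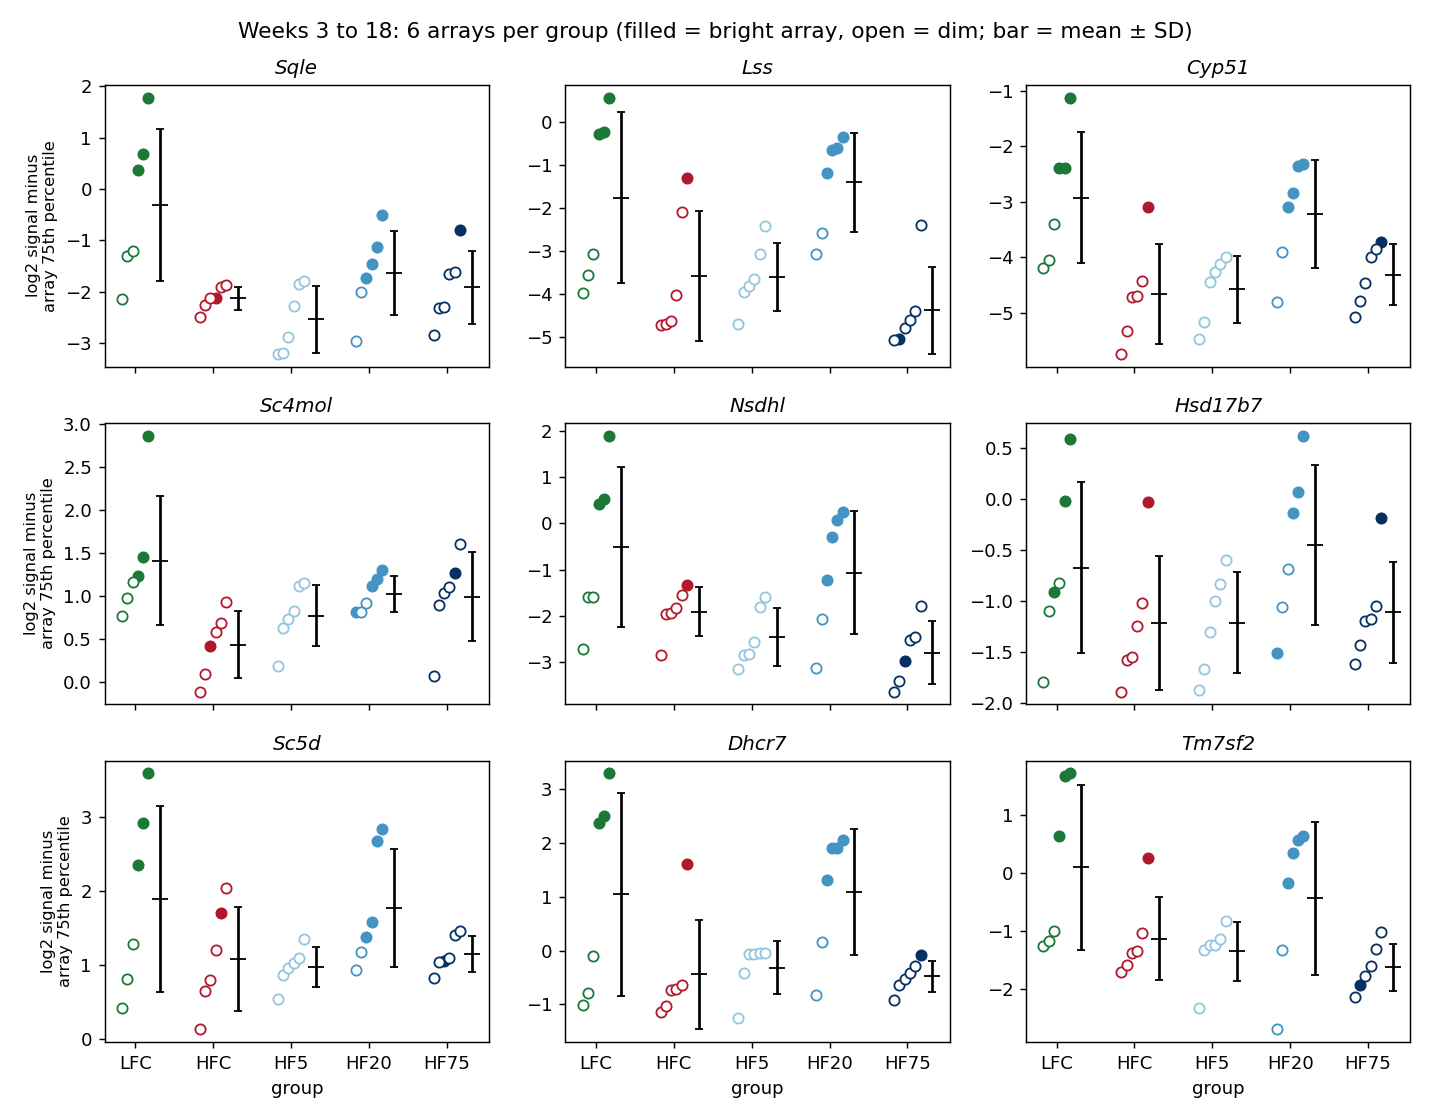
Level of each of the 9 genes (log2 signal minus the array's 75th percentile, vertical axes, scaled for each gene) on the 6 arrays of Weeks 3 to 18 of each group (horizontal axis); filled points are bright arrays, open points dim ones, and bars give the mean and SD. In HF20 the 4 filled points of Lss lie at -1.18 to -0.33, above the 2 open ones at -3.07 and -2.57.

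In HF20 the arrays held Lss at -3.07 to -0.33 (median -0.91), against -4.73 to -1.29 in HFC over the same weeks, and it was higher at 6 of 6 time points, by 2.17 (SE 0.69, adjusted p 0.121). Its spot was well above background on 4 of these HF20 and 3 of these HFC arrays, and the difference was 1.34 with the floor and 0.17 with normexp. Dhcr7 ran from -0.82 to 2.05 (median 1.60) against -1.14 to 1.59 in HFC, and was higher at 4 of 6, by 1.52 (SE 0.57, adjusted p 0.122). Cyp51 ran from -4.81 to -2.31 (median -2.97) against -5.74 to -3.10 and was higher at 5 of 6, by 1.44 (SE 0.45, adjusted p 0.121). The spot of Cyp51 was well above background on 4 of these HF20 arrays, and not on the HFC arrays of Weeks 6, 9, 12 and 18. Its other probes differed by 0.08 and 0.71, so the size is uncertain. HF20 and HFC arrays overlapped for all 3 of these genes. The other differences were 0.84 for Nsdhl (SE 0.54), 0.76 for Hsd17b7 (SE 0.29), 0.69 for Tm7sf2 (SE 0.54), 0.68 for Sc5d (SE 0.41), 0.59 for Sc4mol (SE 0.28) and 0.50 for Sqle (SE 0.43). Sc4mol was higher at 6 of 6 time points.

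Limma called 0 genes in HF20 (0%) and had 7086 at an unadjusted p under 0.05. At that level 13.4% of all genes were higher in HF20, and 5 of the 9 genes were. The median of the 9 genes was 0.76, against -0.18 over all genes. At Weeks 6, 12 and 15, where only the former of these arrays was bright, the median of the 9 genes was 1.78 and all were higher. At the 3 other weeks it was 0.13, with 6 of the 9 higher. Tm7sf2 was at -0.57, and the mean for Lss, 1.27, rests on Weeks 9 and 18, at which its spot was not well above background on the arrays of either group. With the brightness class as a covariate Lss was at 1.097 and Sqle, Nsdhl, Sc5d and Tm7sf2 turned to below 0. With normexp Cyp51 turned to -0.36 and Sqle to -0.070. Without Week 3, at which both arrays were bright, 4 of the 9 genes passed in HF20, namely Lss (2.58, adjusted p 0.0392), Cyp51 (1.68, 0.044), Dhcr7 (1.89, 0.0471) and Hsd17b7 (0.94, 0.0493), where 3344 genes passed (15.5%). With array weights Lss, Cyp51 and Dhcr7 passed, among 5056 genes (23.4%).

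In HF5 no array was bright. Sqle ran from -3.21 to -1.78 there, against -2.50 to -1.88 in HFC, and differed by -0.40 (SE 0.43, 95% interval -1.30 to 0.49). The spot of Sqle was well above background on 4 of these HF5 arrays. It was not on those of Weeks 12 (-3.20) and 18 (-3.21), nor on the HFC array of Week 18. Sc4mol ran from 0.18 to 1.15, against -0.11 to 0.93 in HFC, and differed by 0.34 (SE 0.28), higher at 5 of 6 time points. The other differences were -0.55 for Nsdhl, -0.22 for Tm7sf2, -0.11 for Sc5d, -0.02 for Lss, 0.01 for Hsd17b7, 0.08 for Cyp51 and 0.13 for Dhcr7. Adjusted p ran from 0.851 to 0.997, and limma called 0 genes (0%, with 1193 at an unadjusted p under 0.05). The 95% intervals reached down to -1.68 (Nsdhl) and up to 1.41 (Lss).

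In HF75 the differences from HFC were 0.56 for Sc4mol (SE 0.28, higher at 5 of 6 time points), 0.35 for Cyp51, 0.21 for Sqle, 0.11 for Hsd17b7, 0.06 for Sc5d, -0.03 for Dhcr7, -0.50 for Tm7sf2, -0.81 for Lss and -0.89 for Nsdhl (SE 0.54, lower at 5 of 6). Sc4mol ran from 0.06 to 1.60 in HF75 and Nsdhl from -3.64 to -1.78, and both overlapped HFC. Adjusted p ran from 0.549 to 0.986, and limma called 0 genes (0%, with 2003 at an unadjusted p under 0.05). The spots of Lss and Cyp51 passed the background call on 1 of the 6 arrays of HF75 each. That of Nsdhl passed on 4, and its lowest level (-3.64, Week 12) was not among them. The mean level of the brown adipocyte markers ran from -2.63 to 1.89 on the HF75 arrays, against 0.57 to 3.08 in HFC over its whole course.

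A test of the differences among the 3 doses passed for 1 of the 9 genes, Lss (moderated F test, adjusted p 0.0339), where 2971 of all genes passed (13.7%). The measured level of Lss was higher in HF20 than in HF5 by 2.19 on the log2 scale. Its spot was well above background on 4 HF20, 3 HF5 and 1 HF75 arrays, so the sizes are uncertain and no order of HF5 and HF75 is drawn. Means over Weeks 3 to 18 were -3.60 ± 0.79 in HF5, -1.40 ± 1.14 in HF20 and -4.38 ± 1.01 in HF75 (SD, n = 6). The adjusted p of the others ran from 0.0566 (Nsdhl) and 0.0677 (Cyp51) to 0.728 (Sc4mol). With the brightness class as a covariate the adjusted p of Lss was 0.328, with the percentile covariate 0.42, with normexp 0.432, with the floor 0.0604 and 0.151 with the deposited table, and it was 0.0635 when the bright HF75 array was left out. It was 0.10, 0.153, 0.18 and 0.183 without Weeks 3, 6, 12 and 15.

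The 9 genes varied together over the 38 arrays. Pearson's r between pairs of them ran from 0.25 to 0.883 with a median of 0.673 over 36 pairs, as a description of arrays that share brightness. After regression on the log2 75th percentile the median was 0.437 and the range -0.04 to 0.791. The mean z-score of the 9 genes correlated with the log2 75th percentile at 0.755, and single genes at 0.417 (Sc4mol) to 0.744 (Sqle). Dhcr7 followed the mean most closely (0.936, or 0.858 after the regression) and Sc4mol least (0.644, or 0.553).

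**Figure D5:**
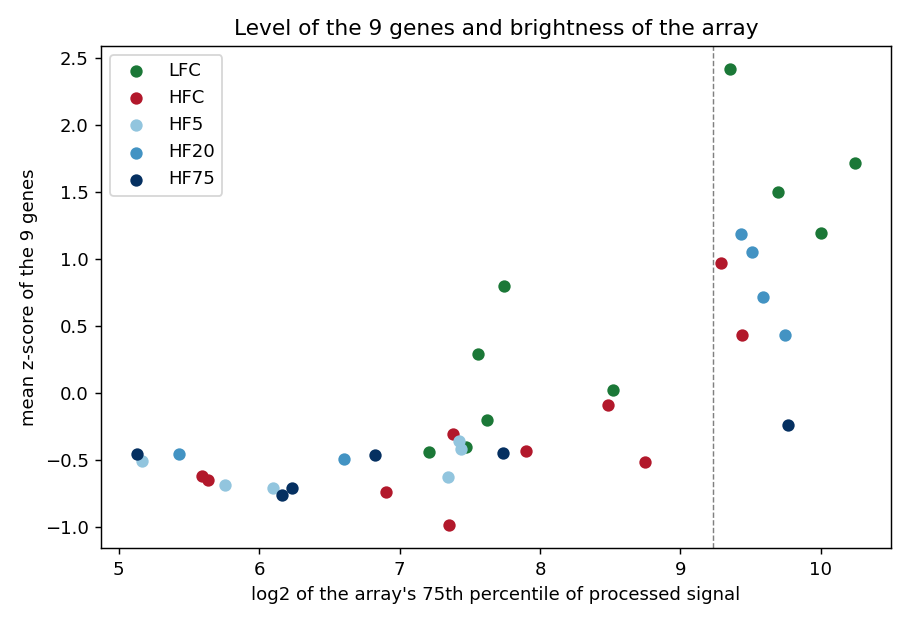
Mean z-score of the 9 genes (vertical axis) against the log2 of each array's 75th percentile of processed signal (horizontal axis) for 38 arrays, coloured by group; the dashed line is the boundary of 600 units. The 10 highest means include all 4 bright LFC arrays and all 4 bright HF20 arrays, while the bright HF75 array of Week 3 lies at -0.24.

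Outside the 9 genes, the profile most like their mean was that of LOC676827 (r 0.951, or 0.913 after the regression), followed by Gm8163 (0.943), Gm3571 (0.939), Fdps (0.928), 9130213B05Rik (0.922), Sgcb (0.908), Gm11295 (0.903) and Kbtbd11 (0.899). Fdps makes farnesyl diphosphate in the early branch. LOC676827, Gm3571, Gm8163, Fdps and Gm11295 were also the first 5 after the regression. Srebf2 followed the mean weakly (0.295, or -0.136 after the regression).

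Around the 9 genes, the early branch was lower in HFC for 10 of 10 genes tested, 5 of them at an unadjusted p under 0.05 and 0 after adjustment, with a median of -0.66. Over all genes tested 45.2% were lower in HFC, and 2.24% were lower at an unadjusted p under 0.05. Phosphomevalonate kinase Pmvk changed by -1.51 (SE 0.40), farnesyl diphosphate synthase Fdps by -1.41 (SE 0.44) and isopentenyl diphosphate isomerase Idi1 by -1.08 (SE 0.32). Of 3 late enzymes tested outside the 9 genes 2 were lower in HFC, 1 of them at an unadjusted p under 0.05, and not all are named. The isomerase Ebp changed by -0.40 (SE 0.20) and Lbr, a second reductase for the step of Tm7sf2, by 0.23 (SE 0.38). The value of Lbr turned to -0.18 with the brightness covariate.

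Of 9 regulators 8 were lower in HFC, against 45.2% of all genes, with a median of -0.24. Insig1 changed by -1.13 (SE 0.45), Srebf1, which drives mainly fatty acid synthesis, by -0.99 (SE 0.49) and Insig2 by -0.41 (SE 0.22). Of 9 genes of sterol uptake, transport and storage 4 were lower and 5 higher, with a median of 0.13. The lysosomal sterol carrier Npc2 changed by -0.95 (SE 0.31) and the sterol exporter Abca1 by -0.32 (SE 0.22). None of these passed, and the adjusted p of all of the named ones were between 0.652 and 0.823. In HF20 against HFC, 9 of 10 early genes and 8 of 9 regulators were higher, none past adjustment. Over all genes tested 58% were lower in HF20.

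Markers of other cells were measured on the same arrays. The 8 lymphocyte markers were all higher in HFC than in LFC, with a median of 1.12, 7 of them at an unadjusted p under 0.05 and 0 after adjustment. Their mean level ran from -5.68 to -2.93 in LFC and from -4.95 to -1.80 in HFC. The 5 erythroid markers tested of 6 were also higher, with a median of 0.87. The median was 0.00 for 7 macrophage, 0.08 for 8 skeletal muscle and -0.01 for 10 brown adipocyte markers. Single arrays differed widely in the mean level of the muscle markers, from -5.59 to 3.90 in LFC and from -4.33 to 5.45 in HFC. The brown adipocyte markers went both ways, with 3 at an unadjusted p under 0.05, namely Ucp1 at 1.17, Cox8b at 0.79 and Elovl3 at -2.98. The part of these cells in the values of the 9 genes was not tested. Of 8 white adipocyte markers 5 were tested. Their median in HFC against LFC was 0.63, with 3 higher and 1, Nnat at 1.94, at an unadjusted p under 0.05. In HF20 against HFC the median was 1.03 for the brown adipocyte, 1.74 for the muscle, 0.996 for the white adipocyte and 0.50 for the macrophage markers. It was below 0 for the erythroid (-1.57) and lymphocyte (-1.05) markers.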

How the data were processed

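Total RNA was labelled with Cy3 and hybridised to 38 Agilent arrays of 1 colour. The deposited scanner files hold intensity values corrected for background by Feature Extraction (10.5.1.1 per the file headers, 9.1 in the submitters' processing notes) and not yet scaled. Values are rounded in 4 arrays of Week 9. A deposited table of log2 ratios against LFC, made by the authors, was an alternative only, since its 4 columns of Week 15 correlated with the scanner values at -0.00459 to 0.00215 (24 others, 0.994 to 1). All columns were mapped (0 unmapped).

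Flagged spots (2492 of 1664514) were left out and repeated spots averaged. From each log2 signal the 75th percentile of its array was subtracted, and the probe with the highest mean stood for its gene. Models were fitted with limma 3.58.1 in R 4.3.3, two-sided, with the time point as a block (none for the trend) and Benjamini-Hochberg adjustment over all genes tested. Weeks were counted from day 14. LFC and HFC deviated together (r over 0.1) at 7 of 10 time points.

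The 9 genes, the lists and the letters searched were chosen with earlier results of these data known. All 9 are named in every comparison, with the 3 smallest p of each pathway list, of which some are not reported here.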

Additional observations from a re-analysis of the deposited data

Results flagged for a closer look

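Dixon's test was applied to 45 sets of arrays (9 genes in 5 groups) and picked out 3 arrays, where chance gives about 1 set in 20. The HF75 array of Week 9 held Lss at -2.389, far above the next highest at -4.384. That spot, at 6.7 intensity units on the dimmest array, was not well above background. The HF5 array of Week 15 held Dhcr7 at -1.256, below the next lowest at -0.4222. The HF5 array of Week 12 held Tm7sf2 at -2.326, below the next lowest at -1.329. Both of these spots were well above background. The measured level of Lss differed among the 3 dose groups (moderated F test in limma, adjusted p 0.0339). This call was lost with the brightness class in the model (0.328). Bright arrays numbered 4 in HF20, 0 in HF5 and 1 in HF75, so dose and brightness cannot be told apart here.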

How the results depend on the processing

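Wherever they were tested, the 9 genes were lower in HFC than in LFC under the alternatives run, in 257 of 257 values. At Weeks 3 to 18 this held in 193 of 193. The strict filter (well above background on every array of the fit) left out Sqle, Lss, Cyp51 and Nsdhl, and at Weeks 3 to 18 also Tm7sf2. The sign changed in 36 of 193 values for HF5, 8 of 193 for HF20, 14 of 193 for HF75, 35 of 221 for diet by day and 16 of 203 for the trend. Of these, 1 concerned a called value, the trend of Cyp51 with normexp (0.34, adjusted p 0.181), and the cause of the changes was not tested. The floor, the left out HF75 array and the single brightness class were chosen after seeing the data. Precision is limited by signal over background, and Lss and Cyp51 lay near it on many HFC, HF5 and HF75 arrays.

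Genes called over the whole array moved more. For HFC against LFC (0 called) there was 1 with array weights and 7 with all 38 arrays in the fit. For Weeks 3 to 18 (2 called) there were 4 with quantile normalization, 1 with the deposited table without Week 15, with no filter, with the slide as a block or without the HF75 array of Week 3, and 0 with normexp, the deposited table, the strict filter, the percentile, the brightness class or the floor. HF5 had 7 and HF20 5056 with array weights. HF75 had 1 with quantile normalization, the strict filter, the brightness class or array weights. For differences among doses (2971 called) there were 6399 with the slide as a block, 7831 with array weights, and 0 with normexp, the deposited table with or without Week 15, no filter, the percentile, the brightness class or without the HF75 array of Week 3. Diet by day had 1 with the percentile, 663 with the brightness class and 861 with array weights. The trend (304 called) had 918 with quantile normalization, 730 with normexp, 68 with no filter, 90 with the strict filter, 156 with the mean over probes, 2 with the scan day as a block or with the percentile, 1701 with the brightness class, 1439 with array weights, 60 with Day 14 and Week 0 joined and 625 with the floor.

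Same-time arrays share a time point, mostly a scan day and in some cases a slide. Without the replicate block 0 genes were called for HFC against LFC, 0 for Weeks 3 to 18 and 1312 for differences among doses.

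Leaving out 1 time point at a time gave 0 to 2 genes for HFC against LFC, 0 to 2 for Weeks 3 to 18, 0 to 3344 for HF20, 0 to 1 for HF75, 0 to 5420 for differences among doses, 0 to 370 for diet by day and 7 to 610 for the trend. In HF5 it gave -0.36 to 0.48 for Lss, -0.22 to 0.014 for Sc5d, -0.38 to 0.013 for Tm7sf2, -0.11 to 0.31 for Cyp51, -0.19 to 0.20 for Hsd17b7 and -0.067 to 0.48 for Dhcr7. In HF75 it gave -0.0078 to 0.40 for Sqle, -0.19 to 0.30 for Dhcr7, -0.039 to 0.16 for Hsd17b7 and -0.064 to 0.20 for Sc5d. For diet by day it gave -0.49 to 0.22 for Cyp51, -1.002 to 0.24 for Dhcr7, -0.57 to 0.11 for Tm7sf2, -0.59 to 0.64 for Lss, -0.15 to 0.56 for Nsdhl, -0.28 to 0.43 for Sqle, -0.20 to 0.55 for Sc5d and -0.36 to 0.24 for the median of the 9 genes. For the trend it gave -0.45 to 0.36 for Nsdhl and -0.41 to 0.034 for Tm7sf2. Lbr, in HFC against LFC, ran from -0.040 to 0.44.

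In HF5, Lss was at 0.27 with quantile normalization, 0.0017 with the deposited table, 0.092 without its Week 15, 0.31 with the percentile, 0.34 with the brightness class and 0.40 with array weights. Tm7sf2 was at 0.040, 0.089, 0.11 and 0.036 with quantile normalization, the percentile, the class and array weights, and Sc5d at 0.071, 0.12 and 0.087 with the last 3. Cyp51 was at -0.27 with normexp, -0.51 with the mean over probes and -0.010 with the floor. Hsd17b7 was at -0.21 with normexp, -0.047 and -0.050 with the deposited table with and without Week 15 and -0.012 with array weights. Dhcr7 was at -0.21 with normexp and -0.35 with the mean over probes.

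In HF20, Sqle was at -0.070 with normexp, -0.0043 with the percentile and -0.16 with the class. Nsdhl was at -0.19 with the deposited table and -0.11 with the class, where Sc5d was at -0.012 and Tm7sf2 at -0.29. Cyp51 was at -0.36 with normexp. In HF75, Sc5d was at -0.039 with quantile normalization and -0.16 with normexp, and Cyp51 at -0.16 with the mean over probes. Dhcr7 was at 0.17 with quantile normalization, 0.061 with the percentile, 0.20 with array weights, 0.14 with the slide as a block and 0.13 without the HF75 array of Week 3.

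For diet by day, quantile normalization gave -0.37 for the median, -0.37 for Sqle, -0.83 for Lss and -0.19 for Nsdhl. The deposited table gave -0.11 for Lss, 0.071 for Dhcr7 and 0.057 for Tm7sf2, and without Week 15 -0.34 for the median, -0.021 for Sqle and -0.39 for Lss. The percentile gave 0.64 for the median, 0.46 for Cyp51, 0.64 for Dhcr7 and 0.28 for Tm7sf2, and the class 0.32, 0.25, 0.32 and 0.12 in that order. Cyp51 was at 0.35 with normexp, 0.65 with the mean over probes, 0.10 with array weights and 0.84 with the floor, Dhcr7 at 0.12 with the mean over probes and Lss at -0.25 with Day 14 and Week 0 joined.

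For the trend, normexp gave 0.070 for the median, 0.30 for Lss, 0.34 for Cyp51, 0.31 for Nsdhl, 0.076 for Hsd17b7, -0.17 for Sc5d and 0.070 for Tm7sf2. The percentile gave 0.0050 for the median, 0.46 for Nsdhl, 0.0050 for Hsd17b7, 0.021 for Dhcr7 and 0.28 for Tm7sf2. The class gave 0.085 for Nsdhl and 0.0014 for Tm7sf2, and array weights 0.099 for Nsdhl. Lbr, in HFC against LFC, was at -0.18 with the percentile, -0.13 with the class and -0.22 within 1 brightness class.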
